A study of Mus musculus with 24 samples.

Results

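Glucocorticoid response genes were followed in the hypothalamus of single mice, as a list of 10 genes: *Fkbp5*, *Cdkn1a*, *Sgk1*, *Tsc22d3*, *Nr3c1*, *Nr3c2*, *Hsd11b1*, *Mt1*, *Mt2* and *Pdk4*. The list was chosen with earlier results of these data known. Members were taken by symbol from the 13998 genes of the deposited table, which gave 9 of the 10 (*Mt1* was not analysed here). *Fkbp5* and *Cdkn1a* lie on Chr 17 in the interval between about 26 and 45 Mb that was mapped for macronutrient and calorie intake, and the other 7 lie outside the CAST segment, where mice of both genotypes carry B6 alleles. The questions were whether these genes differed between the genotypes, and whether a single mouse with high *Cdkn1a* also had high levels of other genes that glucocorticoids induce.

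Libraries came from the hypothalamus of 24 adult male F_2_ mice, 1 library per mouse, which carried on Chr 17 either a CAST (*cast/cast*, 12 mice) or a B6 (*b6/b6*, 12 mice) segment. This segment, from about 3 to 46 Mb, derives from CAST/EiJ in *cast/cast* mice, and the rest of the genome was C57BL/6J in both genotypes. All had completed a 10 d choice between a carbohydrate/protein and a fat/protein diet, were returned to chow, and were killed by isoflurane, after a short fast, about 48 h after the same pair of diets was given again, so that no group of unstressed or chow-fed mice was available for comparison. The *cast/cast* mice were picked from the upper and the *b6/b6* mice from the lower tail of carbohydrate intake, and genotype and selected intake therefore cannot be told apart. Expression was measured by SAGE-Seq, in which a 27-base tag is read from the 3′-most CATG of each transcript. Each transcript gives 1 tag, so counts do not scale with transcript length and levels of different genes could be set side by side per transcript. Values are tag hits divided by the size factor of the library, called normalized counts below. Between 7754202 and 13082873 tag hits were recovered per mouse.

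Glucocorticoids, of which corticosterone is the main one in mice, are steroid hormones of the adrenal cortex released under the control of corticotropin-releasing hormone from the hypothalamus. Inside cells the hormone binds the glucocorticoid and mineralocorticoid receptors, which are held ready by Hsp90 and its co-chaperones, move to the nucleus and change transcription of target genes. The hypothalamus both drives this axis and is a site of its negative feedback, and many of the target genes in brain are strong in glia and endothelium as well as in neurons.

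Some libraries stood apart from the rest. The median Pearson correlation of log2 values with the other 23 libraries was 0.835 in *b6/b6* mouse 12, 0.857 in *cast/cast* mouse 6, 0.870 in *b6/b6* mouse 6 and 0.894 in *cast/cast* mouse 4. *Cast/cast* mouse 4 also had 197 genes at 0, more than any other mouse. The main results that rest on these mice are given with and without them. Of the 9 hypothalamic marker genes in the table, *Pmch*, encoding melanin-concentrating hormone, was the most abundant, with 2388 to 22154 normalized counts over all 24 mice. The summed count of these markers ranged from 3780 in *cast/cast* mouse 6 to 27712 in *b6/b6* mouse 12, with a median of 11552. Hypothalamic marker RNA was thus found in every library, at unequal levels, and what sets these levels was not tested. Blood markers, led by *Hba-a1*, were highest in *b6/b6* mouse 6, with a sum of 4999 normalized counts, and in *b6/b6* mouse 12, with 1704, beside a median of 317 over all mice. By genotype the median sum of blood markers was 527 among *b6/b6* and 255 among *cast/cast* mice, and of all marker genes limma called 1, the thalamic *Tcf7l2*, with a mean of 105 among *cast/cast* and 206 among *b6/b6* mice (log2 fold change -0.84, *P* = 0.00710). The other thalamic markers in the table had log2 fold changes above 0, 0.40 for *Tnnt1*, 0.08 for *Lef1* and 0.04 for *Prkcd*. A lower count in tissue of this kind can come from fewer cells of a type or from less RNA per cell, and these cannot be told apart.

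Mean levels over all 24 mice spanned a wide range. *Mt2*, encoding a metallothionein that binds zinc and copper, was the highest at 4946 normalized counts, and its lowest mouse (3006) lay above the highest mouse of every other member. *Nr3c1* followed at 871, *Tsc22d3* at 487 and *Sgk1* at 414, the ranges of the last pair overlapping over most of their length. *Fkbp5* at 115, *Cdkn1a* at 109 and *Hsd11b1* at 91.0 did not separate beyond their spread among mice. *Pdk4* had a mean of 46.1 and *Nr3c2* one of 13.8 normalized counts, the latter with 2 tag hits in its lowest mouse and thus near the limit of depth.

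**Figure D1:**
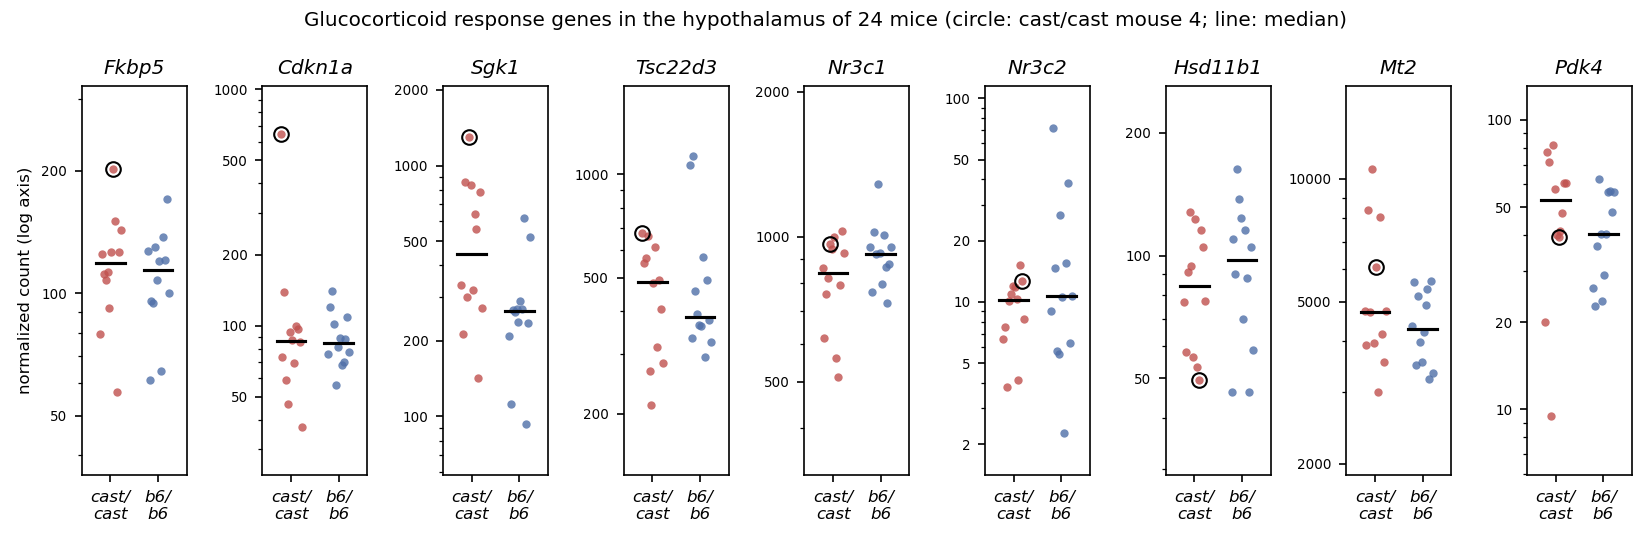
Normalized counts (log axis) of the 9 glucocorticoid response genes in each of 12 *cast/cast* and 12 *b6/b6* mice; each point is a mouse, lines are medians and circles mark *cast/cast* mouse 4. The genotypes overlap for all 9 genes, and the circled mouse is the highest of the 24 for *Fkbp5*, *Cdkn1a* and *Sgk1*.

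None of the 9 members differed between genotypes under the call used, an unadjusted *P* of at most 0.01 in limma together with a ratio of mean counts of at least 1.5. Over all 13998 genes tested, 208 (1.49%) passed the same call. At an unadjusted *P* under 0.05, limma gave 1 member, *Sgk1*, and 8.13% of all genes. By direction, 0.471% of all genes were called higher and 1.01% lower in *cast/cast* mice, and 0.572% had an adjusted *P* of at most 0.05, with 0 members among them. The count tests edgeR and DESeq2, run on the recovered tag hits, each called 1 member, again *Sgk1*. Log2 fold changes, *cast/cast* minus *b6/b6* on the log2(normalized count + 1) scale, were above 0 for 5 members and below 0 for 4, with a median of 0.06 beside -0.02 over all genes.

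The receptors and the enzyme that supplies their ligand came first in the pathway. *Nr3c1*, the glucocorticoid receptor, ranged from 512 to 1029 normalized counts in *cast/cast* mice, with a median of 841, and from 729 to 1285 in *b6/b6* mice, with a median of 922. The genotypes overlapped, although 3 *cast/cast* mice had less than the lowest *b6/b6* mouse, and the log2 fold change was -0.20 (SE 0.13, limma *P* = 0.129, adjusted *P* = 0.661). *Nr3c2*, the mineralocorticoid receptor, which binds corticosterone with high affinity and is strongest in hippocampus, ranged from 3.81 to 15.1 in *cast/cast* mice (median 10.2) and from 2.26 to 71.8 in *b6/b6* mice (median 10.6). Only 4 *b6/b6* mice exceeded every *cast/cast* mouse, led by mice 12 (71.8) and 6 (38.3), which stood apart as libraries. The log2 fold change was -0.43 (SE 0.38, *P* = 0.267), -0.92 in edgeR (*P* = 0.0336) and -0.93 in DESeq2 (*P* = 0.0268). It was -0.70 with study number as a covariate (*P* = 0.0497), -0.99 in mice with study numbers up to 121 (*P* = 0.0469) and -0.03 without those *b6/b6* mice.

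*Hsd11b1* encodes the enzyme that regenerates active corticosterone from its inert 11-keto form inside cells. Counts were 49.5 to 128 in *cast/cast* mice (median 84.2) and 46.4 to 163 in *b6/b6* mice (median 97.6), so the genotypes overlapped over nearly their whole range. The log2 fold change was -0.13 (SE 0.22, *P* = 0.543). Of the 10 genes tested for receptor and ligand handling, which include these members, limma called 0 and gave 0 an unadjusted *P* under 0.05. EdgeR and DESeq2 also called 0, each with 1 gene at an unadjusted *P* under 0.05. The median log2 fold change of that list was 0.05. *Crh*, encoding corticotropin-releasing hormone, ranged from 2.37 to 87.6 in *cast/cast* and from 4.09 to 51.1 normalized counts in *b6/b6* mice, and the log2 fold change was 0.62 (SE 0.45, *P* = 0.184). *Pomc*, the precursor of corticotropin and of melanocortins in arcuate neurons, ranged from 320 to 4527 and from 521 to 5589. Neither neuropeptide gene separated the genotypes, and each varied more than 10-fold among mice of 1 genotype.

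*Fkbp5* encodes an Hsp90 co-chaperone that lowers the affinity of the receptor for hormone and is itself induced by the receptor, closing a short feedback loop. It lies at chr17:28399094-28486112, inside the interval. Counts ran from 57.2 to 202 in *cast/cast* mice (median 119) and from 61.1 to 171 in *b6/b6* mice (median 114). The medians were nearly equal, a single *cast/cast* mouse lay above and another below all *b6/b6* mice, and the log2 fold change was 0.10 (SE 0.19, *P* = 0.599). With study number as a covariate it was -0.02. Of 14 receptor chaperones and coregulators limma, edgeR and DESeq2 called 0, and 0 had a limma *P* under 0.05, beside 8.13% of all genes. EdgeR and DESeq2 each gave 2 of the 14 an unadjusted *P* under 0.05. The lowest limma *P* was that of *Bag1*, an Hsp70 co-chaperone, with 332 to 1943 normalized counts in *cast/cast* and 249 to 1026 in *b6/b6* mice and a log2 fold change of 0.53 (SE 0.26, *P* = 0.0522).

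*Cdkn1a*, at chr17:29090985-29100722 and also in the interval, encodes the cyclin-dependent kinase inhibitor p21, which p53 and glucocorticoids can both induce. Counts ran from 37.4 to 645 in *cast/cast* mice with a median of 86.2, and from 56.1 to 141 in *b6/b6* mice with a median of 84.6. A single mouse set the upper end, since *cast/cast* mouse 4 had 645 normalized counts (508 tag hits) and the next highest of all mice, *b6/b6* mouse 4, had 141. The ratio of means was 1.42 and the log2 fold change 0.06 (SE 0.30, *P* = 0.829). The sign of that value was unstable, being 0.49 in edgeR (*P* = 0.169), -0.15 in DESeq2 (*P* = 0.434) and -0.19 without *cast/cast* mouse 4. Of the 225 genes of the interval 60 (26.7%) passed the call, so most of them, like *Cdkn1a* and *Fkbp5*, did not. A CAST base change in the tag of a gene inside the segment could alter its count, which was not tested for *Fkbp5* and *Cdkn1a*.

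Because each transcript is counted through a single tag, the tags expected from the RefSeq transcripts of the table were read from the GENCODE vM21 transcripts (GRCm38). They are predictions, since the values used here carry no tag sequence. The tags of 8 members were each found at the 3′-most CATG of no other gene. For the members that single mice set apart they are shown with the CATG of the anchoring enzyme in capitals, each on the strand of the gene. They lie in the 3′ untranslated region except for the tag of the second *Cdkn1a* transcript, which lies in its coding sequence.
*Fkbp5*, chr17:28399324-28399350, minus strand: CATGttcttgtattcagtaatctcaga
*Cdkn1a*, chr17:29100591-29100617, plus strand: CATGtattgtggctccctccctgtctc
*Cdkn1a*, second transcript, chr17:29098515-29098541, plus strand: CATGgcgggctgtctccaggaggcccg
*Sgk1*, chr10:21999798-21999824, plus strand: CATGggttataatatgtacaattcctc

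*Sgk1*, a kinase that raises the surface level of ion channels and transporters, is among the most rapidly induced targets of both receptors. Counts were 142 to 1297 in *cast/cast* mice (median 446) and 93.4 to 620 in *b6/b6* mice (median 264). The upper ranges differed, with 5 *cast/cast* mice above all *b6/b6* mice and 2 *b6/b6* mice below all *cast/cast* mice. The ratio of means was 1.94 and the log2 fold change 0.85 (SE 0.33, limma *P* = 0.0151, adjusted *P* = 0.532), which missed the call. EdgeR gave 0.94 (*P* = 0.00696) and DESeq2 0.96 (*P* = 0.00299), which passed it, in tests that called 2.79% and 2.82% of all genes. Without the 4 mice that stood apart the value was 0.39 in limma (*P* = 0.201) and 0.55 in edgeR (*P* = 0.0759), past the call in neither.

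Each mouse carried a study number, and the largest gap in these numbers, from 121 to 197, divided the mice into 12 and 12. The number is not a batch named in the labels, and what sets it was not stated. Among mice numbered up to 121, *Sgk1* ran from 299 to 1297 in 7 *cast/cast* mice (median 787) and from 93.4 to 289 in 5 *b6/b6* mice (median 238). Every lower-numbered *cast/cast* mouse thus exceeded every lower-numbered *b6/b6* mouse, by a narrow margin (299 against 289). The share of all genes that separate in this way was not counted. For *Sgk1* the log2 fold change was 1.94 (limma *P* = 0.000112), in a comparison that called 3.27% of all genes. Among mice numbered 197 and above, counts were 142 to 335 in 5 *cast/cast* mice (median 270) and 209 to 620 in 7 *b6/b6* mice (median 267). These higher-numbered mice overlapped, with a log2 fold change of -0.35 (limma *P* = 0.249), where 1.1% of all genes were called. The difference between both genotype effects was 2.29 on the log2 scale (SE 0.50, limma interaction *P* = 9.47e-05, adjusted over all genes *P* = 0.337), and 2.81% of all genes had an interaction *P* of at most 0.01.

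**Figure D2:**
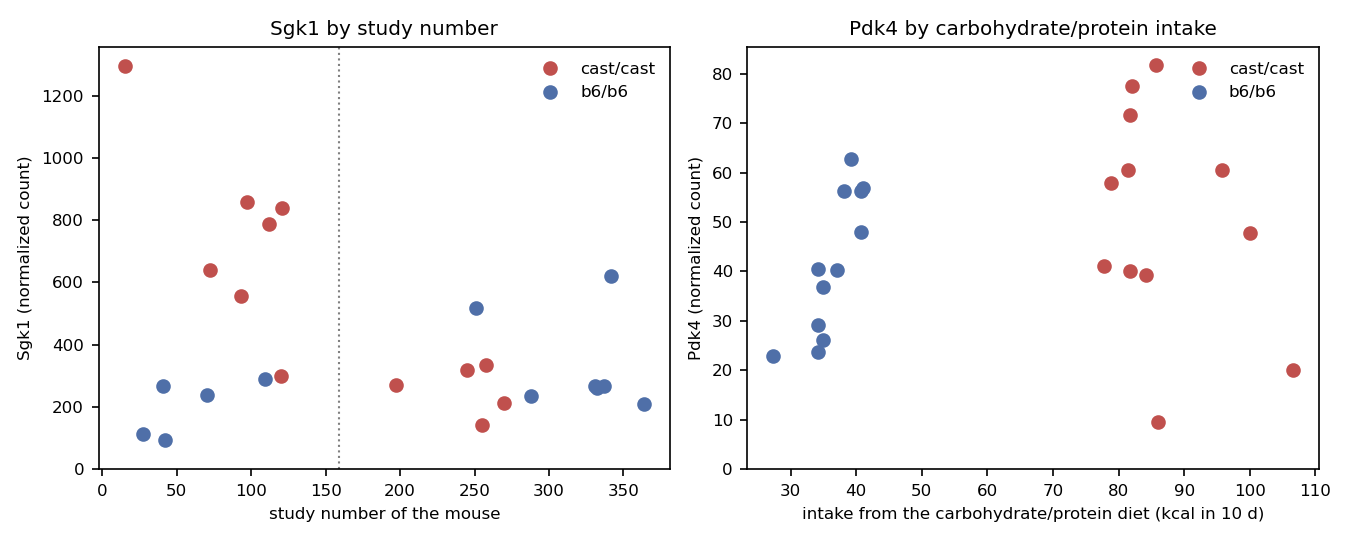
Left, *Sgk1* (normalized count) against study number in 12 *cast/cast* and 12 *b6/b6* mice, with the dotted line in the gap between 121 and 197; right, *Pdk4* (normalized count) against kcal eaten from the carbohydrate/protein diet in 10 d. Each point is a mouse. Lower-numbered *cast/cast* mice lie between 299 and 1297 for *Sgk1*, narrowly above the highest lower-numbered *b6/b6* mouse at 289. *Pdk4* climbs with intake among *b6/b6* mice, which span 22.8 to 62.7.

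*Tsc22d3* encodes the glucocorticoid-induced leucine zipper protein, which mediates part of the anti-inflammatory action of the hormone. Counts were 212 to 674 in *cast/cast* mice (median 487) and 292 to 1133 in *b6/b6* mice (median 384). The 2 highest values of all, 1133 and 1066, belonged to *b6/b6* mice 12 and 6, the libraries that stood apart. The log2 fold change was -0.10 (SE 0.24, *P* = 0.674), and 0.15 without those mice.

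*Mt2* responds to glucocorticoids and, through the factor Mtf1, to zinc. Counts were 3006 to 10565 in *cast/cast* mice (median 4728) and 3234 to 5605 in *b6/b6* mice (median 4288). The *cast/cast* mice were more spread, with 4 above all *b6/b6* mice, and the log2 fold change was 0.24 (SE 0.18, *P* = 0.189). In the 3 other genes of metallothionein and zinc handling limma, edgeR and DESeq2 called 0, and 0 had a limma *P* under 0.05. The zinc importer *Slc39a14* had the lowest *P* of these (log2 fold change 0.13, SE 0.14, *P* = 0.350).

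*Pdk4* encodes a kinase that shuts off pyruvate dehydrogenase and so spares glucose, and it rises on fasting and with glucocorticoids in many tissues. Counts were 9.50 to 81.8 in *cast/cast* mice (median 52.9) and 22.8 to 62.7 in *b6/b6* mice (median 40.3). The *cast/cast* range enclosed that of *b6/b6*, and the log2 fold change was 0.17 (SE 0.28, *P* = 0.538). Among the 5 other kinases and phosphatases of this complex limma, edgeR and DESeq2 called 0 and 0 had a limma *P* under 0.05, with the lowest *P* for *Pdk3* (log2 fold change -0.26, SE 0.22, *P* = 0.245).

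Of 17 other glucocorticoid-induced genes in the table, 1 passed the limma call, higher in *cast/cast* mice, where 0.471% of all genes passed in that direction. A limma *P* under 0.05 was found for 2 of the 17, beside 8.13% of all genes. EdgeR called 4 of the 17 (*Cebpd*, *Plin4*, *Serpina3n* and *Sult1a1*), beside 2.79% of all genes, and DESeq2 called 1, *Cebpd*. *Serpina3n* was lower in *cast/cast* mice by edgeR (log2 fold change -1.74), through *b6/b6* mice 6 and 12, and the other 3 were higher. Without the 4 mice that stood apart edgeR called none of these, with log2 fold changes of 0.30 for *Cebpd*, 0.44 for *Plin4*, 0.24 for *Serpina3n* and 0.20 for *Sult1a1*. The gene called by limma was *Cebpd*, a transcription factor of inflammatory and adipogenic programmes. Its counts were 175 to 611 in *cast/cast* mice (median 246) and 135 to 238 in *b6/b6* mice (median 180). The genotypes overlapped but 7 *cast/cast* mice exceeded every *b6/b6* mouse and 5 *b6/b6* mice had less than any *cast/cast* mouse, and the log2 fold change was 0.53 (SE 0.17, limma *P* = 0.00408, adjusted *P* = 0.335). The ratio of means, 1.52, stood close to the minimum of 1.5, and *Cebpd* lost the call without *cast/cast* mouse 4 (log2 fold change 0.42, *P* = 0.00661). The value was 0.47 (*P* = 0.0129) without *b6/b6* mice 6 and 12 and 0.29 (*P* = 0.0360) without the 4 mice that stood apart. The list as a whole had a median log2 fold change of 0.07, with 10 genes above and 7 below 0.

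The p53 targets and the activity-induced genes served as lists of other stimuli that can raise *Cdkn1a* or accompany handling. Of the 17 genes on the p53 list, which counts *Trp53* itself beside its targets, limma, edgeR and DESeq2 called 0. At an unadjusted *P* under 0.05 were 1 gene in limma, beside 8.13% of all genes, and 2 in DESeq2. The limma gene was *Btg2*, an antiproliferative gene, with 182 to 535 normalized counts in *cast/cast* and 127 to 422 in *b6/b6* mice (log2 fold change 0.42, SE 0.20, *P* = 0.0426). Of 11 activity-induced genes, limma, edgeR and DESeq2 called 0 and 2 had a limma *P* under 0.05, beside 8.13% of all genes. The lowest belonged to *Jun*, a subunit of the AP-1 factor, with 697 to 1254 and 392 to 970 normalized counts (log2 fold change 0.37, SE 0.14, *P* = 0.0167). Median log2 fold changes were 0.08 for the p53 list, with *Trp53* as its median gene, and 0.14 for activity-induced genes, beside -0.02 over all genes.

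Single mice with high *Cdkn1a* were then described one at a time. They were chosen after the values were seen, so no test was made between such mice and the rest. *Cast/cast* mouse 4 had the lowest study number of all mice, 15, and its *Cdkn1a* was 7.52 times the median of the other 11 *cast/cast* mice. Among the members it was also the highest of 24 mice for *Sgk1* (1297, next 857) and *Fkbp5* (202, next 171). Its other 6 members were not the highest: *Tsc22d3* ranked 3 at 674, *Mt2* 4 at 6068, *Nr3c1* 6 at 966 and *Nr3c2* 7 at 12.7. *Pdk4* ranked 17 at 39.4 and *Hsd11b1* ranked 22 at 49.5 normalized counts. *Sgk1* was 3.87 and *Fkbp5* 1.79 times the median of the other 11 *cast/cast* mice. The mouse was the highest for 3 of the 9 members, among them *Cdkn1a*, by which it was picked, and for 7.24% of all genes. This difference was not tested. High *Cdkn1a* in this mouse thus went with raised *Sgk1* and *Fkbp5* but not with all members.

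The other glucocorticoid-induced genes were counted in this mouse beside all genes, and the difference was not tested. Their list was chosen with earlier results of these data known, and the mouse by its values, so the counts are descriptive only. It was the highest of 24 mice for 6 of the 17 genes, and for 7.24% of all genes. For 9 of the 17 it exceeded the median of the other *cast/cast* mice at least 2-fold, which it did for 9.35% of all genes. No other mouse was the highest for more than 2 of the 17, or 2-fold above its genotype's median for more than 4. The mice that reached 4 were *cast/cast* mouse 6 and *b6/b6* mice 6 and 12, in which 15.0%, 17.5% and 21.1% of all genes were 2-fold above. In *cast/cast* mouse 4 the median log2 ratio of the 17 genes to the other 11 mice was 1.05, beside -0.02 over all genes. *Cast/cast* mouse 6, a library that stood apart with *Cdkn1a* at 86.6, shared some of the raised genes, with log2 ratios to the other *cast/cast* mice of 2.37 for *Sult1a1*, 2.08 for *Gjb6*, 1.95 for *Klf9* and 1.15 for *Angptl4*.

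*Plin4*, which coats lipid droplets, had 630 normalized counts in *cast/cast* mouse 4 and at most 57.0 in the other 23 mice. *Sult1a1*, a phenol sulfotransferase, had 3063 against at most 1110. *Angptl4*, an inhibitor of lipoprotein lipase whose gene also lies in the interval, had 984 against at most 527. These 3 genes and the following were singled out after their values were seen. *Arrdc2*, of the arrestin-domain family, had 102 against at most 65.4, *Cebpd* 611 against at most 404, and *Glul*, the glutamine synthetase of astrocytes, 15444 against at most 9554. The 6 genes have separate roles, among them in lipid, amino acid and drug metabolism. Not all targets followed, as *Dusp1*, a phosphatase that glucocorticoids and neuronal activity induce, was at 20.3 in this mouse, the second lowest of 24, and *Per1*, a clock gene with the same inputs, ranked 9 at 100 normalized counts.

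Lists for other stimuli were counted in *cast/cast* mouse 4 in the same way, beside 7.24% of all genes at the highest and 9.35% at 2-fold above. It was the highest of 24 for 2 of the 17 genes on the p53 list, *Trp53inp1* (217, next 178) and *Phlda3* (1758, next 1727). For 0 of the 17 was it at least 2-fold above the other *cast/cast* mice. *Trp53* itself, which is on that list, was at 6.35 normalized counts (5 tag hits), against a median of 55.7 in the other 11. For activity-induced genes it was the highest for 0 of 11 and 2-fold above for 0. The difference between lists was not tested. *Crh* was at 87.6 normalized counts, the highest of all mice, against at most 51.1 in the other 23.

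Marker genes of cell types were compared in the same mouse, since its library stood apart. Summed hypothalamic markers were 6345 normalized counts, above only 2 mice, and oligodendrocyte markers, led by *Mbp*, were 12958, above only 1. Astrocyte markers, led by *Slc1a3*, summed to 9145, but single genes went opposite ways: *Aldh1l1* was the highest of 24 mice at 3740 normalized counts, while *Aqp4* at 284 and *Gja1* at 230 were the lowest. Of 5 microglial markers, which summed to 1772, *C1qa* (22.9), *Csf1r* (122), *P2ry12* (80.01) and *Tmem119* (2.54) were the lowest of 24 mice, and *Cx3cr1*, the most abundant, ranked 5 at 1544. Endothelial and mural markers, led by *Ly6c1*, summed to 1099 (rank 9), with *Ly6c1* at rank 6 and *Flt1* the lowest of 24 at 8.89. Blood markers, led by *Hba-a1*, came to 349 and choroid plexus markers, led by *Kl*, to 138, ranking 12 and 16 of 24. *Rgs9*, the 1 striatal marker in the table, was at 2694, the second highest of 24. Thalamic markers, led by *Tcf7l2*, summed to 311 (rank 8). Of the pituitary markers, *Gh*, the most abundant, was at 26.7 (rank 7) and *Cga* at 0, as in some other mice. The part of composition, library quality or study number in the pattern of this mouse was not tested.

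**Figure D3:**
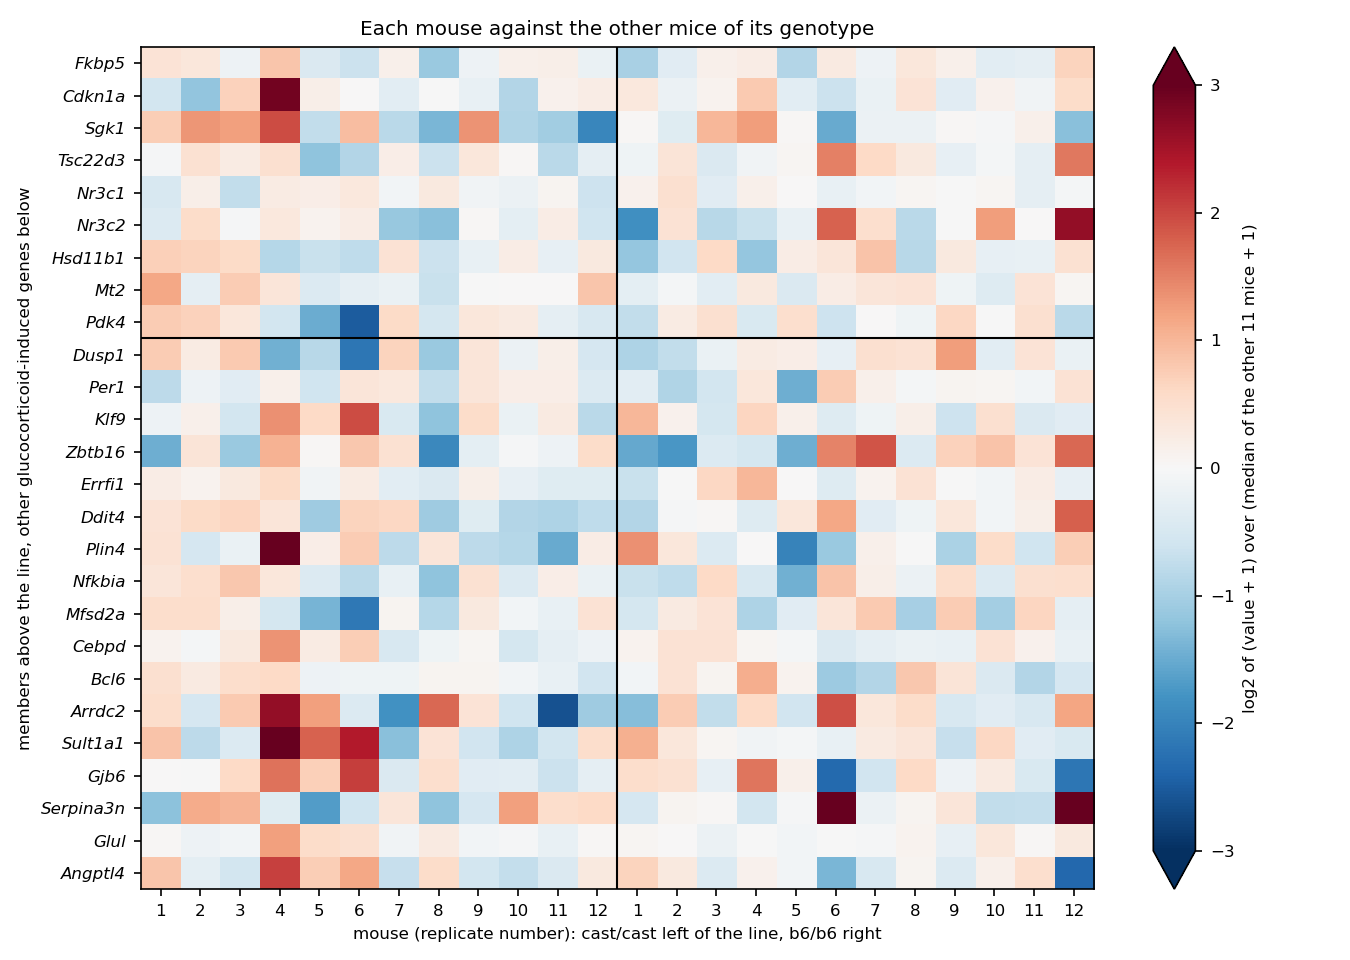
Each column is a mouse and each row a gene, the 9 members above the line and 17 other glucocorticoid-induced genes below it; colour is the log2 ratio of the normalized count (plus 1) to the median of the other 11 mice of the same genotype (plus 1), limited to between -3 and 3 in colour. *Cast/cast* mouse 4 is red in *Cdkn1a*, *Sgk1*, *Plin4*, *Sult1a1*, *Arrdc2* and *Angptl4*, and *b6/b6* mice 6 and 12 share their own pattern in *Tsc22d3*, *Nr3c2* and *Serpina3n*.

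Other mice with raised *Cdkn1a* repeated that profile in part or not at all. *B6/b6* mouse 4 (141 normalized counts, 1.73 times the median of the other *b6/b6* mice) had the highest *Sgk1* of its genotype at 620, with *Plin4* at 21.2 and *Sult1a1* at 197, near the middle of all mice. *Gjb6* (6985, rank 2), *Klf9* (2034, rank 4), *Errfi1* (279) and *Bcl6* (212), the last pair the highest of 24, were high in this mouse, and they ranked 3, 2, 3 and 3 in *cast/cast* mouse 4. It was the highest of 24 for 2 of the 17 other induced genes and for 8.36% of all genes, and 7.59% of all genes were 2-fold above the median of its genotype. *Cast/cast* mouse 3 (138 normalized counts, 1.61 times the median of the other 11) had *Sgk1* at 787, *Fkbp5* at 113 and *Plin4* at 33.0, and was the highest for 1 of 17 and for 2.51% of all genes, with 3.15% of all genes 2-fold above the median. *B6/b6* mouse 12 (120 normalized counts) had *Fkbp5* at 171 but *Sgk1* at 112, the second lowest of all mice, and was the highest for 1 of 17 genes and for 20.4% of all genes. High *Sgk1* also occurred without raised *Cdkn1a*, as *cast/cast* mice 9 and 2 had *Sgk1* at 857 and 840 but *Cdkn1a* at 73.7 and 37.4, the latter the lowest of all mice.

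Across mice, *Cdkn1a* was correlated with the other 8 members within each genotype, 16 relations in all. By Pearson's *r* on log2 values 0 of 16 had an adjusted permutation *P* of at most 0.05, with 1 at an unadjusted *P* under 0.05, and by Spearman's rho 0 passed and 1 had an unadjusted *P* under 0.05, *Pdk4* in *cast/cast* mice (rho = -0.63, permutation *P* = 0.0326; *r* = -0.25, permutation *P* = 0.361). Among *b6/b6* mice 8.55% of all genes and among *cast/cast* mice 12.7%, or 10.6% of relations together, had an unadjusted *P* under 0.05 with *Cdkn1a*. The lowest *P* was with *Hsd11b1* in *cast/cast* mice (*r* = -0.56, permutation *P* = 0.0377, adjusted *P* = 0.470 in this family and 0.462 over all genes; rho = -0.51, permutation *P* = 0.0929), and *r* was -0.17 without the 2 mice farthest from the median of *Cdkn1a*. *Pdk4* in *b6/b6* mice had *r* = -0.45 (permutation *P* = 0.140; rho = -0.57, *P* = 0.0588), and -0.83 without the 2 farthest mice (permutation *P* = 0.00323, adjusted *P* = 0.0517), the largest value of the family in that setting. Without mice 6 and 12 it was -0.76 (permutation *P* = 0.00988). *Hsd11b1* in *b6/b6* mice had *r* = -0.56 (permutation *P* = 0.0588; rho = -0.47, *P* = 0.126), -0.34 without the 2 farthest mice and -0.74 without mice 6 and 12 (permutation *P* = 0.0129). With *Sgk1* in *cast/cast* mice *r* was 0.34 (permutation *P* = 0.290; rho = 0.04, *P* = 0.903), 0.05 without the 2 farthest mice and -0.21 without mouse 4. With *Sgk1* in *b6/b6* mice it was 0.40 (permutation *P* = 0.192; rho = 0.27, *P* = 0.404), -0.42 without the 2 farthest mice and 0.58 without mice 6 and 12. With *Fkbp5* in *cast/cast* mice *r* was 0.30 (permutation *P* = 0.311; rho = -0.18, *P* = 0.573), -0.33 without the 2 farthest and -0.45 without mouse 4. The positive values of *Cdkn1a* with *Sgk1* and *Fkbp5* in *cast/cast* mice thus rested on that mouse.

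The genes whose pattern over all 24 mice was most like that of *Cdkn1a*, after the genotype means were removed, were *Pnpla2* (*r* = 0.80), *Plin4* (0.76), *Daam2* (0.75), *Glul* (0.75) and *Ptprn* (0.74) among 11994 other genes with a mean of at least 20. *Pnpla2* encodes the lipase that starts breakdown of stored triglyceride, *Daam2* a formin and *Ptprn* a protein of dense-core vesicles. In *cast/cast* mouse 4 *Pnpla2* was at 1132, *Daam2* at 546 and *Ptprn* at 6975 normalized counts, the highest of 24 mice for each. Without that mouse *r* was 0.46, 0.39, 0.40, 0.34 and 0.61, in the same order, so the likeness rested on it to a large part.

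Among the members themselves, all 36 pairs were correlated in each genotype, 72 relations in all, a family added after the data were seen. Of these 3 had an adjusted permutation *P* of at most 0.05, and 16.7% had an unadjusted *P* under 0.05, beside 20.1% of the relations of members with every other gene. Adjusted over all those relations, 2 of the 72 passed, and 4697 of 251937 overall. The difference was not tested. In *b6/b6* mice *Sgk1* and *Tsc22d3*, which the same receptors induce, ran in opposite directions (*r* = -0.86, permutation *P* = 0.000310, adjusted *P* = 0.0223 in this family and 0.0356 over all genes, 0.493% of which had an *r* with *Sgk1* at least as large; rho = -0.89, *P* = 0.000220), with *r* = -0.90 without the 2 mice farthest from the median of *Sgk1*. Without *b6/b6* mice 6 and 12 it was -0.58 (permutation *P* = 0.0676). In *cast/cast* mice the same pair had the opposite sign (*r* = 0.55, permutation *P* = 0.0671; rho = 0.64, *P* = 0.0280) and *r* = 0.54 without the 2 farthest mice. In *cast/cast* mice *Hsd11b1* and *Pdk4* rose and fell together (*r* = 0.77, permutation *P* = 0.000770, adjusted *P* = 0.0277 and 0.0446 over all genes, where 21.1% of genes had an *r* with *Hsd11b1* at least as large; rho = 0.90, *P* = 0.000210), with *r* = 0.83 without the 2 farthest mice. *Nr3c1* and *Mt2* were opposed in *cast/cast* mice (*r* = -0.84, permutation *P* = 0.00165, adjusted *P* = 0.0396 and 0.0584 over all genes, 2.24% of which had an *r* with *Nr3c1* at least as large; rho = -0.78, *P* = 0.00430, adjusted 0.0774), with *r* = -0.77 without the 2 farthest. *Tsc22d3* and *Nr3c2* in *b6/b6* mice followed with *r* = 0.78 (permutation *P* = 0.00287, adjusted *P* = 0.0517; rho = 0.68, *P* = 0.0186), and 0.34 without the 2 farthest mice, which were mice 6 and 12.

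The nearest genes of the other members differed from member to member. *Fkbp5* was most like *Rad17* (*r* = 0.79), which serves the DNA damage checkpoint, and *Zzef1* (0.77). *Sgk1* was most like *Errfi1* (0.76), a feedback inhibitor of the EGF receptor that is itself on the list of other induced genes, then *5330438D12Rik* (0.74) and *Sdpr* (0.73), a caveolar protein. *Tsc22d3* was most like *Prmt6* (0.83), *Atg9b* (0.83) and *Cables2* (0.82), with *r* of 0.69, 0.58 and 0.72 without the 4 mice that stood apart. For the receptors, *Nr3c1* was nearest to *Cmtm4* (0.91), *Pak3* (0.90) and *Cyld* (0.88), and *Nr3c2* to *Dynlt3* (0.86), *Ccdc127* (0.84) and *Itch* (0.83), the latter 3 with 0.79, 0.64 and 0.73 without the 4 mice. *Hsd11b1* was nearest to *5430416N02Rik* (0.86), *Eif2s3y* (0.86) and *Gemin6* (0.86), *Mt2* to *Pts* (0.74), *Gstm1* (0.73) and *Itm2b* (0.73), and *Pdk4* to *Nt5c3* (0.94), *Fam184a* (0.93) and *Actr6* (0.92). No member was among the 3 nearest genes of another member. With 3 places among 11994 genes this was likely in any case, and *Nr3c2* (mean 13.8) was below the mean of 20 required. It therefore does not show whether members run together.

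Intake of the carbohydrate/protein diet, in kcal summed over 10 d, was set against each member within each genotype, 18 relations in all. The range of intake was narrow by selection, 77.8 to 106.6 kcal in *cast/cast* and 27.4 to 41 kcal in *b6/b6* mice. A single relation had an adjusted permutation *P* of at most 0.05, that of *Pdk4* in *b6/b6* mice (*r* = 0.85, permutation *P* = 0.000190, adjusted *P* = 0.00342; rho = 0.83, *P* = 0.00146, adjusted *P* = 0.0263). Mice that ate more from that diet had more *Pdk4*, from 22.8 normalized counts at 27.4 kcal to 57.0 at 41 kcal. It held without the 2 mice farthest from the median intake (*r* = 0.82, permutation *P* = 0.00635) though the adjusted value no longer passed, and after a linear trend on study number was removed (*r* = 0.82, permutation *P* = 0.000680).

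Set against all genes, 0.393% had an *r* with intake at least as large in *b6/b6* mice, and adjusted over every gene in both genotypes the *P* of *Pdk4* was 0.168. In *b6/b6* mice 21.1% of all genes had an unadjusted *P* under 0.05 with intake, against 2.74% in *cast/cast* mice, and the lowest intake belonged to *b6/b6* mouse 12, whose library stood apart. In *cast/cast* mice *Pdk4* gave *r* = -0.31 (permutation *P* = 0.328; rho = -0.20, *P* = 0.524), and the difference between genotypes was not tested. *Tsc22d3* in *b6/b6* mice was next, with *r* = -0.67 (permutation *P* = 0.0184, adjusted *P* = 0.165; rho = -0.42, *P* = 0.172) and -0.40 without the 2 farthest mice.

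Promoters were searched because the members are defined by a shared hormone. RefSeq promoters (GRCm38.p6), 250 bases before to 50 after a transcript start, were matched for 8 members, all but *Nr3c1*, with 16 promoters. The palindromic glucocorticoid response element, AGAACA and TGTTCT with 3 free bases between them, was found in 1 of the 16, an *Sgk1* promoter, and in 0.00913% of all 32851 promoters. One side of it, AGAACA, searched on both strands and overlapping the full element, was found in 4 of the 16 promoters, those of *Sgk1* and *Tsc22d3*, and in 19% of all promoters. The metal response elements TGCACNC and TGCGCNC, on both strands, were in 2 and 3 of the 16 promoters and in 12.6% and 15.4% of all promoters. *Mt2* had 2 matches of each, *Hsd11b1* held the former and *Nr3c2* and *Sgk1* the latter. *Fkbp5*, *Cdkn1a* and *Pdk4* promoters held none of the 4 letter patterns in this window. The 250 bases before the start are shown for *Sgk1*, the member with the full element, with it in capitals, and for *Mt2*, the most abundant member, with the metal response elements inside those bases in capitals. A match describes the letters only.
*Sgk1*, chr10:21993640-21993889, plus strand: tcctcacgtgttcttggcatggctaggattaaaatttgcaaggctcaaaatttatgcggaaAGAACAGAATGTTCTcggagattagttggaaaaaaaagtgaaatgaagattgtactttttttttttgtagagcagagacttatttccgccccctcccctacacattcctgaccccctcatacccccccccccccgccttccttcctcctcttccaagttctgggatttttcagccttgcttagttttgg
*Mt2*, chr8:94172368-94172617, plus strand: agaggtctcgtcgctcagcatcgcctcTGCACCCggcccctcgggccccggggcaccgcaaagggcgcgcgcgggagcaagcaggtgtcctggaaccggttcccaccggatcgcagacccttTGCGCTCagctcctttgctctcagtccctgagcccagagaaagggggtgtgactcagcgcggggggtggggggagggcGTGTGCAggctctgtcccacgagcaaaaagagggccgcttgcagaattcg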

How the data were processed

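Hypothalamus libraries of 24 mice were made with the SOLiD SAGE kit, and the authors aligned tags to RefSeq mRNA and GRCm38 (mm10) and divided tag hits by DESeq size factors, so the deposited values are a normalized signal. The deposited table also holds the authors' own comparison, namely group means, fold changes and p-values, which were not used. In every library 100% of values were whole multiples of 1 step (tolerance 0.02), which returned the tag hits. limma 3.58.1, on log2(normalized count + 1), was run for genes whose mean reached 5, as were edgeR 4.0.16 and DESeq2 1.42.0 on tag hits (391 and 395 genes called), in R 4.3.3, after tests on simulated data. Adjusted *P* values are Benjamini-Hochberg. Correlations used two-sided permutation tests with 100000 resamples. Named genes were all members, called list genes or the lowest *P* of each list, and the genes most like each member. Further genes of single mice, markers and lists were named after their values were seen. Members and lists were chosen with earlier results of these data known. Cell type markers and alternatives are given with the results. Tags carry no molecular identifiers.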

Additional observations from a re-analysis of the deposited data

Results flagged for a closer look

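The genotype difference of *Sgk1* was not the same in mice with study numbers up to 121 and in mice numbered 197 and above, by an interaction term. The difference between both effects was 2.29 on the log2 scale (SE 0.50, limma *P* = 9.47e-05), from means of 754 ± 309 (SD, 7 *cast/cast* mice) and 200 ± 90.8 normalized counts (5 *b6/b6* mice) in lower-numbered and 256 ± 79.2 (5 mice) and 340 ± 161 (7 mice) in higher-numbered mice. It failed correction over all genes (adjusted *P* = 0.337). Over all 13998 genes, limma gave 0 with an adjusted interaction *P* of at most 0.05, 394 (2.81%) with an unadjusted one of at most 0.01 and 1885 under 0.05, and edgeR and DESeq2 were not run for this term. Without *cast/cast* mouse 4 it was 2.14, and without the 4 mice that stood apart, all of them numbered up to 121, 1.59 (*P* = 0.00297). The part of library quality was not tested. *Sgk1* was the 1 of 9 members with an interaction *P* of at most 0.01, or under 0.05. Of the 17 other glucocorticoid-induced genes 6 had an interaction *P* under 0.05, beside 13.5% of all genes: *Bcl6* (1.24, *P* = 0.00165), *Gjb6* (2.04, *P* = 0.00274), *Klf9* (1.30, *P* = 0.0110), *Cebpd* (0.76, *P* = 0.0253), *Zbtb16* (-1.52, *P* = 0.0309) and *Errfi1* (0.66, *P* = 0.0406). None of these passed correction over all genes. Values without the 4 mice that stood apart are given here for *Sgk1* only. For *Gjb6*, log2 ratios to the other mice of the genotype were 1.63 and 2.08 in *cast/cast* mice 4 and 6. They were -2.34 and -2.18 in *b6/b6* mice 6 and 12. For *Bcl6* they were 0.59, -0.12, -1.08 and -0.49 in the same order. The part of these mice in the 6 interactions was not tested.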

How the results depend on the processing

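Members called numbered 1 in edgeR, in DESeq2 and in mice numbered up to 121 (*Sgk1* each time) and 0 elsewhere. List genes called, 1 in the main comparison, numbered 4 in edgeR and 0 with rescaled libraries, with an adjusted *P* of at most 0.05, without *cast/cast* mouse 4, and without *b6/b6* mice 6 and 12. They were 3 in lower-numbered mice (*Bax*, *Cebpd*, *Fkbp4*), 1 in higher-numbered mice (*Sesn1*) and 1 without the 4 mice that stood apart, in limma and in edgeR (*Junb*). Over all genes the count of 208 (66 higher, 142 lower in *cast/cast*) became 391 in edgeR (60 and 331), 395 in DESeq2 (82 and 313), 230 with rescaled libraries (43 and 187, the median log2 fold change moving to -0.11), 457 in lower-numbered mice, 80 with adjusted *P* and 137 without *b6/b6* mice 6 and 12. Without the 4 mice that stood apart the count over all genes was 191 in limma (74 higher, 117 lower) and 181 in edgeR (69 and 112). Intake relations passing fell from 1 to 0 without the 2 farthest mice, and member pairs went from 3 to 5 both with rescaled libraries and without the 2 farthest mice. The cause was not tested.

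In edgeR *Serpina3n* turned from -1.74, past the call, to 0.24 without the 4 mice that stood apart. Other log2 fold changes that turned sign, none past the threshold once turned, were those of *Fkbp5* (-0.0168 with study number as a covariate), *Cdkn1a* (-0.0264 rescaled, -0.15 in DESeq2, -0.0917 in higher-numbered mice, -0.19 without *cast/cast* mouse 4, -0.23 without the 4 mice that stood apart, -0.1628 without them in edgeR), *Sgk1* (-0.35 in higher-numbered mice), *Tsc22d3* (0.15 without *b6/b6* mice 6 and 12, 0.15 without the 4 mice, 0.218 so in edgeR), *Hsd11b1* (0.0485 in higher-numbered mice, 0.0795 without the 4 mice, 0.0245 so in edgeR) and *Slc39a14* (-0.0014 without the 4 mice). In *cast/cast* mice *r* of *Cdkn1a* with *Fkbp5* became -0.18 by rho, -0.33 without the 2 farthest mice and -0.45 without mouse 4, and with *Sgk1* -0.21 without mouse 4. In *b6/b6* mice *r* with *Sgk1* became -0.42 without the 2 farthest mice. The interaction of *Sgk1* stayed between 1.59 and 2.26 in 5 alternatives, and the 6 of 17 genes highest in *cast/cast* mouse 4 were 6 with rescaled libraries. Alternatives that leave out mice, those of the interaction and those of the member pairs were chosen after seeing the data. No paired analysis was possible because replicate numbers were given in accession order and pair no mice. Depth limits *Nr3c2* most, with 2 tag hits in its lowest mouse.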

Other observations

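The libraries describe mice selected on intake, at 1 time after diets were given again, with no measure of corticosterone and no stressed or adrenalectomized group. A profile of 1 mouse has no replicate, and *cast/cast* mouse 4 was singled out by its values. Genotype, intake and, in part, study number cannot be told apart. Whole hypothalamus mixes neurons and glia. Tag counts do not separate transcript forms that share a tag, and a tag altered by a CAST base change was not tested. With 12 mice per genotype, a difference that misses the threshold is not shown to be absent.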
